A study of Mus musculus with 24 samples.

Results

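The MAP kinase feedback regulators studied here were 10 genes that switch the kinase cascades off again: the dual-specificity phosphatases Dusp1, Dusp2, Dusp4, Dusp5, Dusp6 and Dusp10, the Sprouty genes Spry1, Spry2 and Spry4, and Spred1. They are named for their known role and were chosen with earlier results of these data in view. Each was read by 1 probe whose accession maps to the gene in the RefSeq table, and all 10 were among the 27959 genes tested. RNA of 24 whole kidneys of male mice, labelled young adult and given in the methods as a few weeks old, had been hybridized to single-dye Agilent arrays, 1 kidney on each. The 6 control kidneys came from mgb+/+ mice. The 18 mutant kidneys came from age-matched mgb-/- (megabladder) mice, in which an atonic bladder obstructs the urinary tract from before birth, and the labels grade their hydronephrosis as mild in 7, moderate in 5 and severe in 6. The grade came from ultrasound and rests on how much parenchyma was left. The mutation is carried throughout the body, and no mgb-/- kidney without hydronephrosis was sampled, so genotype and obstruction cannot be told apart. Whether some kidneys are pairs from 1 mouse is not given in the sources used here, and the p-values measure the spread between these kidneys.

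Growth factors, stress and mechanical strain activate MAP kinases by adding phosphate to a threonine and a tyrosine of the kinase. Dual-specificity phosphatases take both phosphates off again, and Sprouty and Spred proteins act further up, where receptors signal to Ras. Many of these genes are themselves switched on by ERK signalling, which makes them negative feedback regulators and, in many tissues, a readout of pathway activity. In the kidney, Spry1 is known for restraining signalling through the receptor Ret during branching of the ureteric bud.

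Levels are log2 intensities relative to the 75th percentile of the same array, so 0 is the level of a fairly bright probe. Levels of different probes were not compared with each other. A gene passed the test where limma gave an adjusted p under 0.05 over all genes. On all arrays, between 55.6% and 70.7% of the probes stood well above background. The array of severe replicate 4 stood apart, with 660 outlier spots and a mean correlation of 0.936 with its own group. Without it, 3 regulators passed between mgb-/- and control kidneys, as with it. Of the regulators, 7 stood well above background on every array. The exceptions were Dusp5, Dusp10 and Spry4.

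Between mgb-/- and control kidneys, 3 of the 10 regulators rose and none fell: Dusp1, Dusp5 and Spry2. The Dusp5 call is limited by control values near background. Over all genes tested, 5.34% rose and 8% fell. The median log2 change was 0.53 over the 10 regulators and 0.01 over all genes, and 9 of the 10 had a higher mean in mgb-/- kidneys. At an unadjusted p under 0.05 the count was 8, against 29% of all genes in either direction. Dusp1 and Dusp5 also passed with a 2-fold minimum, which 1.83% of all genes did in the upward direction, but Dusp5 lost that call with normexp background correction and in the authors' normalized table.

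Dusp1 encodes an inducible nuclear phosphatase of ERK, p38 and JNK and is itself an immediate early gene. In control kidneys its log2 level ran from 0.68 to 2.40, with a median of 1.31 (n = 6). In mild kidneys it ran from 2.61 to 3.38, with a median of 3.00 (n = 7). The 5 moderate kidneys lay at 2.76, 2.94, 2.61, 2.58 and 2.58. In every mild and moderate kidney Dusp1 was higher than in any control. In severe kidneys it ran from 2.23 to 3.21, with a median of 2.96 (n = 6), and 1 of them fell below the highest control, replicate 2. The mean was 2.85-fold higher in mgb-/- kidneys, a log2 change of 1.51 (SE 0.19, limma adjusted p = 7.41e-05). The SD was 0.62 over the controls and 0.33 over the 18 mgb-/- kidneys, and this difference in spread was not tested. On each of the 3 slides, which held 2 control and 6 mgb-/- kidneys apiece, the change was 1.51, 1.37 and 1.65.

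Dusp5 encodes a nuclear phosphatase that acts on ERK alone. Its log2 level ran from -6.14 to -5.35 in control kidneys, with a median of -5.72, and the probe stood well above background on only 1 of the 6 control arrays. In mild kidneys it ran from -4.82 to -3.13, with a median of -4.20, and all 7 arrays measured it. The moderate kidneys lay at -4.61, -4.15, -4.89, -4.92 and -4.92, again measured on all 5 arrays. All mild and moderate kidneys thus lay above all controls. In severe kidneys it ran from -5.36 to -2.68, with a median of -4.56, and 5 of 6 arrays measured it. Severe replicate 1, at -5.36, was the only mgb-/- kidney that reached into the control range. Dusp5 was 2.61-fold higher in mgb-/- kidneys, a log2 change of 1.38 (SE 0.31, limma adjusted p = 0.00661). Because most control arrays gave no signal above background, this size rests on how background is treated. Dusp5 was kept by the filter on dim probes through its mgb-/- arrays, 17 of 18 of them well above background. Its control values lay near background, which limits its test here and by grade. With normexp background correction the log2 change was 0.46 (adjusted p = 0.012), and in the authors' normalized table, it was 0.47 and no longer passed (adjusted p = 0.0707). Within the slides it was 1.20, 2.15 and 0.81.

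Spry2 encodes an inhibitor of growth factor signalling close to the receptor. Its log2 level ran from -2.54 to -1.95 in control kidneys (median -2.29), from -2.03 to -1.12 in mild kidneys (median -1.87) and from -2.26 to -1.08 in severe kidneys (median -1.61). The moderate kidneys lay at -1.54, -1.90, -1.50, -1.90 and -1.79. Of the 18 mgb-/- kidneys, 16 lay above every control, and all 18 lay above the control mean. The difference was smaller than that of the phosphatases above, 1.48-fold, or 0.56 in log2 units (SE 0.14, limma adjusted p = 0.0103). Within the slides it was 0.35, 0.78 and 0.56. Not one of the 10 regulators had every mgb-/- kidney above every control, a pattern that 0.347% of all genes showed.

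**Figure D1:**
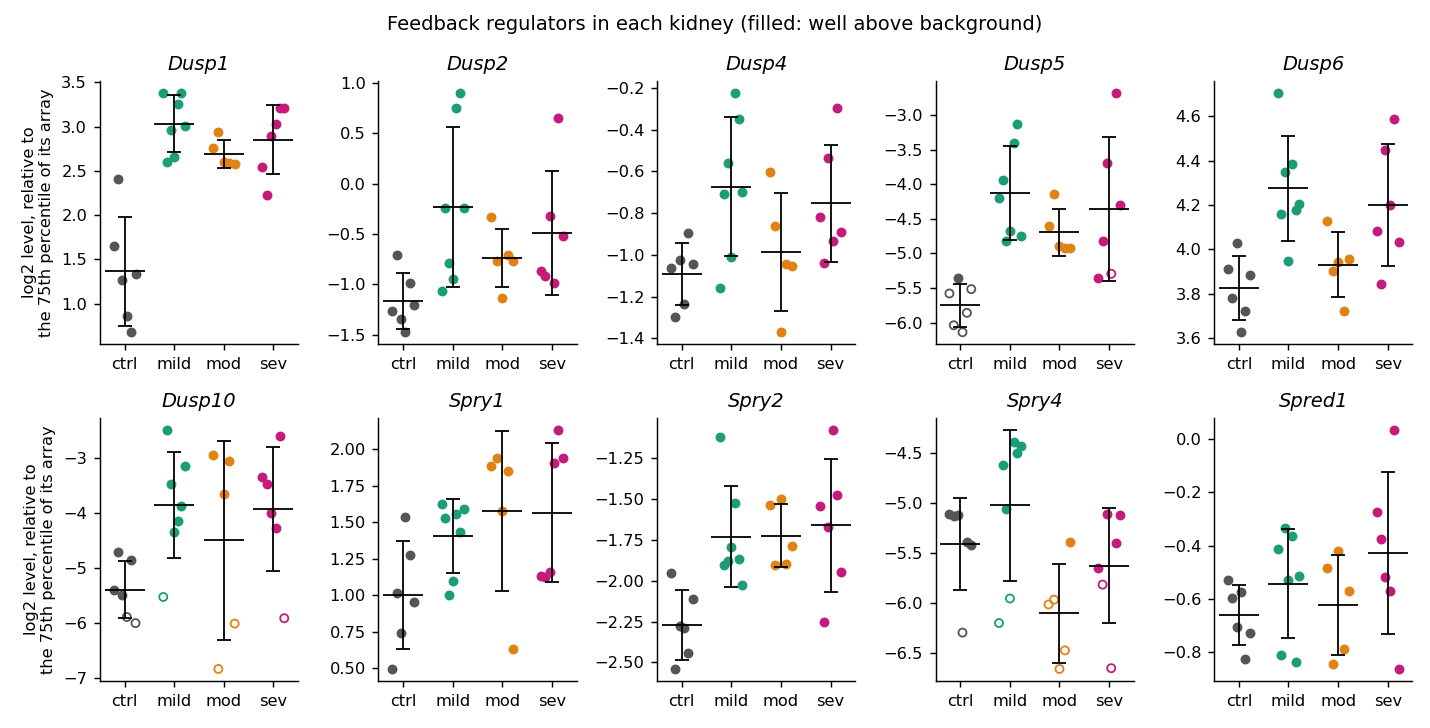
The log2 level of each regulator, relative to the 75th percentile of its array, is plotted for every kidney by group (ctrl, control; mod, moderate; sev, severe). Points are kidneys, filled where the probe stood well above background, and black lines give the group mean and SD. Dusp1 lay above every control in 17 of 18 mgb-/- kidneys, while the Spry4 groups overlapped.

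The promoters of the 3 regulators that rose are printed because inducible regulators of this kind carry known response elements close to their start. RefSeq (GRCm38.p6) gave a promoter for 8 of the 10 regulators. The 250 bases before the start were searched on both strands for TGACG (a CRE half-site, bound by CREB-type factors), TGACGTCA (a full CRE, which holds half-sites in both orientations), TGANTCA (an AP-1 site), CCGGAAG (an ETS core) and the CArG box, bound by SRF. Capitals mark the matches. The Dusp1 stretch is chr17:26508473-26508722 (minus strand), the Dusp5 stretch chr19:53528895-53529144 (plus strand) and the Spry2 stretch chr14:105896820-105897069 (minus strand).
Dusp1: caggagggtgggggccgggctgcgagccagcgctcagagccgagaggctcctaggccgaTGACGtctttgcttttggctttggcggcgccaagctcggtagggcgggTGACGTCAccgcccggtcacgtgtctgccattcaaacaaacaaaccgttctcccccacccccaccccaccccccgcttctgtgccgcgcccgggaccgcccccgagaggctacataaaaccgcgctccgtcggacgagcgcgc
Dusp5: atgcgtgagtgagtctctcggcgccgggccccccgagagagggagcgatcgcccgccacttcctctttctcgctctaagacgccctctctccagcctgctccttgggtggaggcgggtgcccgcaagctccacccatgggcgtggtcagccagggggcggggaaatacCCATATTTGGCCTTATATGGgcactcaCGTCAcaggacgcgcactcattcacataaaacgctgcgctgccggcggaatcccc
Spry2: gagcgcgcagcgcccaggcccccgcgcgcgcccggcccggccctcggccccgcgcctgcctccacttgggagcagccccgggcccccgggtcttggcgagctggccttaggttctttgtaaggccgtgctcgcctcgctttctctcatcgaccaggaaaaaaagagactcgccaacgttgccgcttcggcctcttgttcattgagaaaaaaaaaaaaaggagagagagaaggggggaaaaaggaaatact

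The Dusp1 stretch held 1 full CRE, which began 143 bases before the start, and a further half-site upstream of it. The Dusp5 stretch held 2 CArG boxes side by side, of which the nearer began 72 bases before the start, and 1 half-site. The Spry2 stretch held none of these motifs. Of the 8 regulators with a promoter, 2 held a CRE half-site, 1 a full CRE, 1 a CArG box, and none an AP-1 site or an ETS core in this window. Among 32851 promoters of the same length, 17.8% held a CRE half-site, 1.55% a full CRE, 6.75% an AP-1 site, 6.91% an ETS core and 1.47% a CArG box. These are matches of letters and do not show that a factor was bound.

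The remaining inducible nuclear phosphatases did not pass the test. Dusp2, best known from activated leukocytes, had log2 levels from -1.48 to -0.71 in control kidneys (median -1.23) and from -1.14 to 0.90 in mgb-/- kidneys (median -0.74). Its 3 highest values, 0.90, 0.75 and 0.65, belonged to mild replicates 6 and 5 and severe replicate 5, while 10 of the 18 mgb-/- kidneys lay within the control range. The log2 change was 0.70 (SE 0.26, limma adjusted p = 0.0739). Dusp4, whose product acts on ERK and JNK in the nucleus, ran from -1.30 to -0.89 in control kidneys (median -1.05) and from -1.37 to -0.22 in mgb-/- kidneys (median -0.84). Its change was 0.31 (SE 0.14, adjusted p = 0.135).

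Dusp6 encodes the cytoplasmic phosphatase of ERK and is widely used as a marker of ERK activity. It ran from 3.63 to 4.03 in control kidneys (median 3.83), from 3.95 to 4.70 in mild kidneys (median 4.20) and from 3.84 to 4.59 in severe kidneys (median 4.14). Its moderate kidneys lay at 4.13, 3.90, 3.94, 3.72 and 3.96, with only 1 of 5 above all controls. Over all mgb-/- kidneys the log2 change was 0.33 (SE 0.12, limma adjusted p = 0.0623), short of the threshold. It passed under 6 of 35 other settings, among them quantile normalization and the authors' table.

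Dusp10 encodes a phosphatase of p38 and JNK. Its log2 level ran from -6.00 to -4.72 in control kidneys (median -5.44) and from -6.84 to -2.49 in mgb-/- kidneys (median -3.77), and 4 of 6 control and 14 of 18 mgb-/- arrays measured it. The mgb-/- kidneys were split, with 14 above every control and the other 4 (mild, severe and 2 moderate kidneys) low and not well above background. The difference was 2.52-fold and did not pass (log2 change 1.33, SE 0.51, limma adjusted p = 0.0821). Its size moved with the background treatment, to 0.56 with normexp, where it passed (adjusted p = 0.013), and to 0.63 in the authors' table (adjusted p = 0.0833). It also passed with array quality weights (adjusted p = 0.0013) and without moderate replicate 2, moderate replicate 5 or severe replicate 6 (adjusted p = 0.0245, 0.0431 and 0.0452).

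Spry1 ran from 0.49 to 1.53 in control kidneys (median 0.99) and from 0.63 to 2.13 in mgb-/- kidneys (median 1.57), and 10 of the 18 lay above every control. Its log2 change of 0.50 (SE 0.19, limma adjusted p = 0.0717) missed the threshold. It passed without moderate replicate 5, the kidney at 0.63 (adjusted p = 0.0273). Spred1, whose product binds neurofibromin and holds Ras inactive, ran from -0.83 to -0.53 in control kidneys and from -0.86 to 0.04 in mgb-/- kidneys, with a change of 0.13 (95% interval -0.09 to 0.35, adjusted p = 0.434). Spry4 alone had a lower mean in mgb-/- kidneys, by a log2 change of -0.11 (95% interval -0.77 to 0.54, adjusted p = 0.85). Its sign turned to 0.11 with normexp background correction and to 0.20 with array quality weights. Spry4 was dim throughout and stood well above background on 5 of 6 control and 10 of 18 mgb-/- arrays.

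Each grade was next set against the same 6 controls, so these comparisons share their control samples. In mild kidneys Dusp1, Dusp5 and Dusp6 rose, with log2 changes of 1.67, 1.62 and 0.45 (limma adjusted p = 0.000429, 0.0112 and 0.0345). Over all genes 3.01% rose and 3.01% fell in that comparison. With 1 kidney left out, 9 kidneys in turn left 2 of these calls in place of 3, and so did 4 other settings. In moderate kidneys Dusp1 alone rose, by 1.33 (adjusted p = 0.0153), where 0.647% of all genes rose and 0.554% fell. Leaving out moderate replicate 1 ended this call, but then only 16 of 27959 genes passed in either direction, against 336 with it. In severe kidneys Dusp1, Dusp5 and Spry2 rose, by 1.49, 1.39 and 0.61 (adjusted p = 0.000504, 0.0182 and 0.0232), where 6.57% of all genes rose and 9.56% fell. With median scaling, 1 regulator passed there, beside 12.6% of all genes in either direction. The Spry2 change was near the same in all grades, 0.54 in mild and 0.54 in moderate kidneys (adjusted p = 0.0569 and 0.119).

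**Figure D2:**
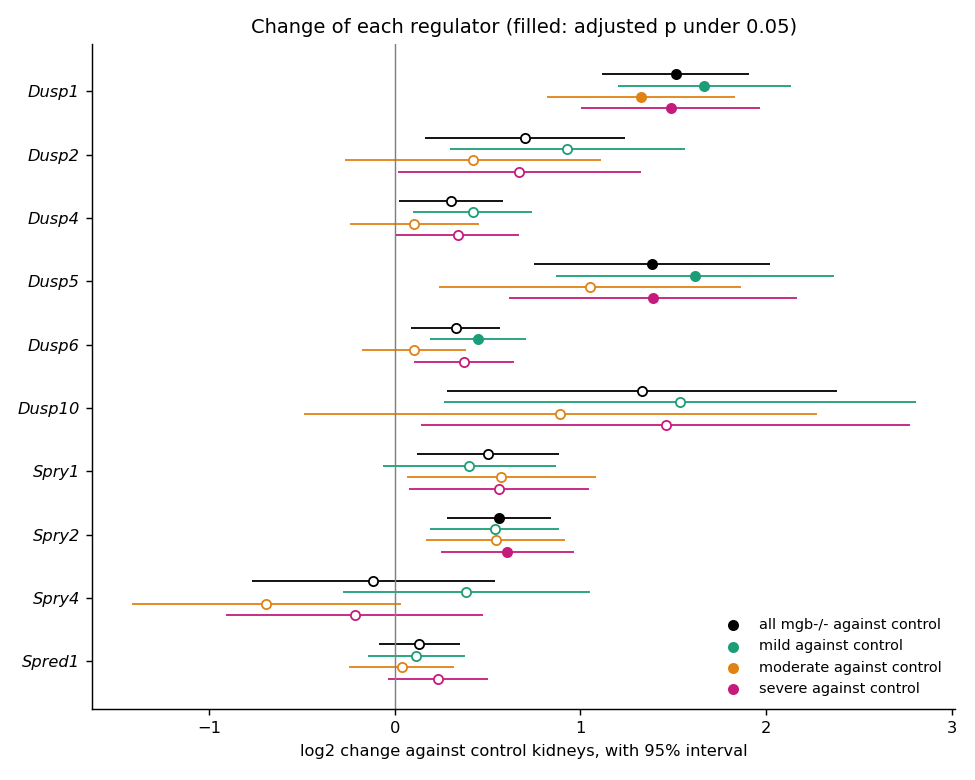
The log2 change of each regulator against control kidneys is plotted with its 95% interval, for all mgb-/- kidneys and for each grade. Filled points passed the test. Dusp1 passed in all 4 comparisons, while Spry4 and Spred1 passed in none.

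Between the grades themselves, none of the 10 regulators passed limma's test. From mild to severe 0.587% of all genes passed in either direction, from moderate to severe 0.00715%, and from mild to moderate 0%. At an unadjusted p under 0.05 the counts of regulators were 0, 0 and 2, the last being Dusp6 and Spry4, against 11.1%, 10.4% and 6.67% of all genes. Dusp6 was lower in moderate than in mild kidneys with a log2 difference of -0.34 (SE 0.13, adjusted p = 0.598). Spry4 was lower by -1.08 (SE 0.34, adjusted p = 0.555), but only 1 of 5 moderate arrays measured it. With array quality weights 1 regulator passed between moderate and mild kidneys, beside 1.83% of all genes. For Dusp1 the severe minus mild difference was -0.18 (95% interval -0.65 to 0.29) and for Dusp5 it was -0.23 (-0.98 to 0.52), so the intervals held differences in either direction. The mild mean was the highest of the 3 grades for 7 regulators and the moderate mean the lowest for 8, without passing any test. The share of all genes with either order was not computed. Over all genes, 14965 of 27959 were lower in moderate than in mild kidneys, beside 8 of the 10 regulators. In severe kidneys 14501 genes were lower than in mild ones, beside 7 of the 10.

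Markers of other cell types were also summed by grade. The 8 urothelium markers had a summed level, in units of the 75th percentile of the array, of 6.47 to 19.2 in control, 5.51 to 61.1 in mild, 14.5 to 57.8 in moderate and 73.1 to 244 in severe kidneys, and none of them was undetected in any whole group. Between mgb-/- and control kidneys, 3 of the 8 passed and all 8 had a higher mean, with a median log2 change of 1.85. By grade, 8 passed in severe, 2 in moderate and none in mild kidneys, where all 8 means were again higher (median 0.47). Between severe and mild kidneys 6 passed. The summed level of the 8 smooth muscle and fibroblast markers ran from 46.1 to 56.5 in control, 54.2 to 79.2 in mild, 30.9 to 152 in moderate and 41.8 to 218 in severe kidneys. Between mgb-/- and control kidneys 2 of them passed and all 8 had a higher mean, with a median log2 change of 0.59. By grade, 3 passed in severe and none in moderate or mild kidneys. None of the 7 leukocyte or 6 endothelium markers tested passed between mgb-/- and control kidneys. In severe against control kidneys 1 endothelium marker passed, and it was lower. Of the 8 kidney epithelium markers, all detected in every group, only Aqp2 passed between mgb-/- and control kidneys, and it rose. Their means were higher for 4 and lower for 4, with a median log2 change of -0.07. Against mild kidneys all 8 had a lower mean in severe (median -0.40) and in moderate kidneys (median -0.49), and none passed. The part of these cells in the regulators' changes was not tested. In whole kidneys, fewer cells of a type and less RNA per cell cannot be told apart.

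Among the other phosphatases and Sprouty or Spred genes, 6 of 7 could be tested. Dusp8, a phosphatase of JNK and p38, rose, and Spry3 fell. Dusp8 ran from -3.36 to -2.53 in control kidneys (median -3.10) and from -2.47 to -0.58 in mgb-/- kidneys (median -1.35), with every mgb-/- kidney above every control. Its log2 change was 1.52 (SE 0.28, limma adjusted p = 0.00188), close to that of Dusp1. Spry3 ran from -5.49 to -4.65 in control kidneys, well above background on all 6 arrays, and from -8.28 to -5.21 in mgb-/- kidneys, where it was measured on 1 of 18 arrays (adjusted p = 0.000281). No mild or moderate array measured it, so only an approximate limit is given. It was at least about 1.83-fold lower in mild and 1.78-fold lower in moderate than in control kidneys. That limit sets the control mean against the dimmest signal of any probe that stood well above background on each array. Spry3 was kept by the filter on dim probes through its control arrays, and its mgb-/- values lay near background, which limits its test. Dusp7, Dusp9, Dusp16 and Spred2 did not pass, with changes of 0.09, 0.12, 0.07 and 0.17. Spred3 was too dim to be tested.

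The genes around the regulators in the pathway were described as lists. Of 17 other ERK-responsive genes tested, 7 rose and 2 fell, with a median log2 change of 0.80. Egr2, a zinc finger factor, ran from -5.77 to -4.58 in control and from -3.07 to 1.56 in mgb-/- kidneys, a change of 4.15 (SE 0.41, limma adjusted p = 2.61e-06). Egr1, its relative, changed by 3.64 (SE 0.44) and Fos, a subunit of AP-1, by 3.94 (SE 0.53). In all 3 genes every mgb-/- kidney lay above every control. Epha2, a receptor tyrosine kinase, rose by 1.29 (SE 0.22, adjusted p = 0.00112). The 2 genes that fell, named after their values were seen, encode ETS factors. Etv1 changed by -1.36 (SE 0.32, adjusted p = 0.00851), with 15 of 18 mgb-/- kidneys below every control, and Etv5 by -0.49 (SE 0.15, adjusted p = 0.036).

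Of 18 ERK cascade genes, none rose and 2 fell, with a median of -0.07, beside 5.34% of all genes that rose and 8% that fell. Map2k2, which encodes a kinase of ERK, changed by -0.37 (SE 0.11, limma adjusted p = 0.034), and no mgb-/- kidney reached the control mean. Of 15 JNK and p38 cascade genes none rose and 2 fell, with a median of -0.06. Mapk14, which encodes p38 alpha, changed by -0.46 (adjusted p = 0.0167) and Mapk10, a JNK gene, by -0.63 (adjusted p = 0.0475). Of 13 growth factor receptors tested 2 rose, with a median of 0.19: Fgfr2 by 0.42 (adjusted p = 0.0326) and Erbb2 by 0.28 (adjusted p = 0.0416). For comparison, the median over all genes was 0.01.

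**Figure D3:**
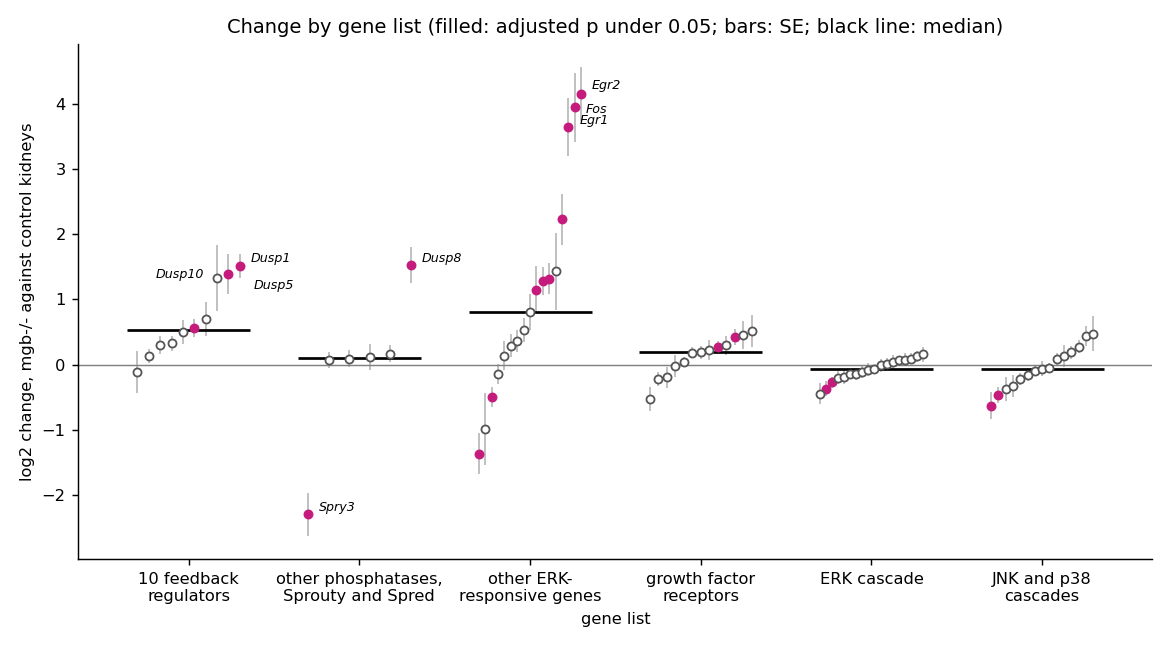
For every gene tested of 6 lists, its log2 change from control to mgb-/- kidneys is plotted with the SE. Filled points passed the test and the black line is the median of the list, 0.53 for the 10 regulators, 0.80 for the other ERK-responsive genes and -0.07 for the ERK cascade.

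How the regulators varied together was examined over the 18 mgb-/- kidneys alone, so that the difference from controls could not produce a relation. Of 45 pairs, 7 correlated with an adjusted p under 0.05 by both Pearson's r and Spearman's rho (permutation tests with 100000 resamples, two-sided, adjusted over the 45 pairs). The share of such pairs among all genes was not computed, so whether 7 of 45 is more than for other genes was not tested. The grades were pooled without removing their means, and the part of grade differences in these relations was not tested. Dusp2 and Dusp4 were the most alike, with r = 0.88 (adjusted p = 0.00045) and rho = 0.81 (adjusted p = 0.00495). Without the 2 kidneys farthest from the median of Dusp2, r was 0.83, and within the slides it was 0.94, 0.95 and 0.76. Dusp2 and Dusp5 had r = 0.83 (adjusted p = 0.00225) and rho = 0.69 (adjusted p = 0.0193). Their relation did not hold on the first slide, where r was -0.35 against 0.86 and 0.94 on the others. The same was true of Dusp4 and Dusp5, with r = 0.70 over all and -0.22 on the first slide. Without the 2 kidneys farthest from the Dusp2 median, r was 0.77 for Dusp2 and Dusp5. It was 0.53 for Dusp4 and Dusp5 without the 2 farthest from the Dusp4 median. Each slide held 6 of these kidneys.

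Dusp1 went with other members of the family. Its r was 0.69 with Dusp6 (adjusted p = 0.0124; rho 0.67, adjusted p = 0.0286) and 0.60 with Dusp5 (adjusted p = 0.0491; rho 0.62, adjusted p = 0.0481). Without the 2 kidneys farthest from the Dusp1 median these were 0.71 and 0.54. Within the slides, r ran from 0.36 to 0.91 for Dusp6 and from 0.78 to 0.81 for Dusp5. Spry4 had r = 0.70 with Dusp2 and 0.72 with Dusp4 (adjusted p = 0.0105 for each), with a positive r on every slide, although it was measured on 10 of the 18 arrays. Without the 2 kidneys farthest from the Dusp2 or the Dusp4 median, these were 0.55 and 0.72. No pair with Spry1, Spry2, Spred1 or Dusp10 passed. Spry2, which rose with Dusp1 and Dusp5 between mgb-/- and control kidneys, had r = 0.40 with Dusp1 and 0.02 with Dusp5.

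**Figure D4:**
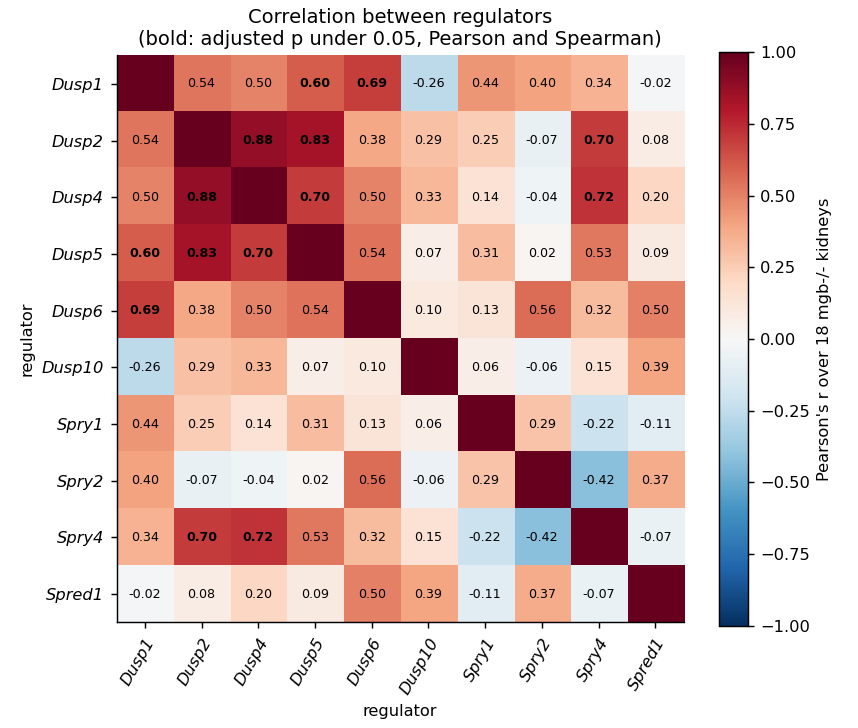
Pearson's r between regulators over the 18 mgb-/- kidneys is shown for each pair by colour and number. Bold values passed at an adjusted p under 0.05 by both Pearson's r and Spearman's rho, as in the block of Dusp2, Dusp4 and Dusp5, with r of 0.88, 0.83 and 0.70.

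For each regulator that rose, the most similar genes were found from the deviations of all 24 kidneys from their own group means, over 16269 genes with a symbol. These are the highest values of a long search and carry no test. Nearest to Dusp1 were Zfp36, which encodes an RNA-binding protein that destabilizes messages (r = 0.91, rho 0.89), Errfi1, an inhibitor of the EGF receptor (r = 0.76), and Ddit4, a stress-induced inhibitor of mTOR signalling (r = 0.76). Nearest to Dusp5 were Pkmyt1, a kinase that holds back entry into mitosis (r = 0.85), Cxcl1, a neutrophil chemokine (r = 0.84), and Lig1, a DNA ligase (r = 0.83). Nearest to Spry2 were Disc1 (r = 0.81), Ddn (r = 0.80) and Fzd7, a Wnt receptor (r = 0.77). The 3 lists had no gene in common, but lists this short out of 16269 genes would rarely share one.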

How the data were processed

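Total RNA of 24 kidneys had been labelled with Cy3 and hybridized to Agilent SurePrint G3 mouse arrays. The authors deposited the scanner output of each array (Agilent Feature Extraction 10.10), whose processed signal is an intensity with background subtracted and no scaling between arrays, and a normalized table of intensities whose method is not given in the sources used here. The processed intensity was log2-transformed and scaled to the 75th percentile of the array, taken without control spots. Outlier spots were left out, spots of a probe averaged, probes kept if well above background on 5 or more arrays, and the brightest probe used for each gene. Probes were named through RefSeq accessions (26762 of 55681). The other 28919 were kept under their own accession, each counted as a gene, so the genes tested include transcripts without a symbol. A difference was tested with limma 3.58.1 (R 4.3.3), with Benjamini-Hochberg adjustment over all 27959 genes, in 2 groups for all mgb-/- kidneys and in 4 groups for the grades. The script was tested on simulated data. Precision is limited by how many arrays there are and, for dim probes, by signal near background. The regulators and the gene lists were chosen with earlier results of these data known. All regulators and all other phosphatase, Sprouty and Spred genes are named, and of other lists at most 4 genes that passed, by p, of which 1 is not reported here. From the lists, Cd68 had no probe named, and Spred3, Egr3, Erbb4 and Ret were too dim to be tested. Kidneys sharing a replicate number had a median correlation of 0.005, from -0.55 to 0.65 (10 of 33 pairs above 0.1). The numbers were therefore not taken to pair samples, although this check cannot exclude that some kidneys are paired. Alternatives were quantile and median scaling, normexp, the authors' table, other filters and probe rules, slide and replicate blocks, array weights, the compared groups alone, other thresholds, and leaving out each kidney.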

Additional observations from a re-analysis of the deposited data

Results flagged for a closer look

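Of 40 groups of kidneys examined, 4 groups for each of 10 regulators, 2 held a kidney far from the others by Dixon's test, and chance flags about 1 group in 20. Spry1 in moderate replicate 5 had a log2 level of 0.63, while the next lowest moderate kidney was at 1.58. Spry4 in control replicate 4 had a log2 level of -6.30, while the next lowest control was at -5.42, and the probe was not well above background on that array.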

How the results depend on the processing

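Dusp1 and Spry2 passed between mgb-/- and control kidneys under all 35 other settings, with log2 changes of 1.36 to 1.72 and 0.37 to 0.63. Dusp5 passed under 33 of 34 and missed with the authors' table (0.47, adjusted p = 0.0707). The number of regulators that passed was 8 with array quality weights and 7 at an adjusted p under 0.1, where 30.9% and 20.8% of all genes passed, against 13.3% in the main setting. Leaving out 1 kidney at a time gave 3 to 5, with 5 without moderate replicate 2 or moderate replicate 5. Over all genes, 4394 and 4696 of 27959 passed in those 2 settings, against 3732 in the main setting. For mild kidneys the number of regulators was 9 with array quality weights, 5 at an adjusted p under 0.1 and 5 with the compared groups alone. The shares of all genes there were 26.9%, 10.7% and 20%, against 6.02% in the main setting. The replicate block gave 2, where 1.87% of all genes passed. With 1 kidney left out the number was 2 to 5. It was 5 without severe replicate 5, where 2463 of 27959 genes passed, against 1684. For moderate kidneys it was 4 with array quality weights (18.8% of all genes) and 0 with a replicate block (0.0858%, against 1.2% in the main setting). With 1 kidney left out it was 0 to 2. It was 0 without moderate replicate 1, where 16 of 27959 genes passed, and 2 without moderate replicate 5, where 1209 passed, against 336. For severe kidneys it was 1 with median scaling and 1 with the compared groups alone (12.6% and 6.63% of all genes, against 16.1%). With 1 kidney left out it was 2 to 5 (5 without severe replicate 6, where 7328 of 27959 genes passed). Between moderate and mild kidneys the number of regulators was 1 with array quality weights (1.83% of all genes). The replicate block left the count at 3 for all mgb-/- kidneys, where 7.57% of all genes passed. Of the 24 kidneys, 6 correlated best with their own replicate number. With a 2-fold minimum, 1 regulator passed instead of 2 with normexp, with the authors' table and with probes measured on all arrays, which leaves Dusp5 out, and 2 to 3 with 1 kidney left out. Median scaling moved the median of all genes to -0.15 and turned Spred1 to -0.022. Spry4 turned to 0.11 with normexp and 0.20 with array weights.

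The severe minus mild difference reversed for Dusp10 with normexp (0.11), slide as a block (0.015) and the replicate block (0.042), and ran from -0.35 (without mild replicate 1) to 0.32 (without severe replicate 6) with 1 kidney left out. It reversed for Dusp5 with normexp (0.13), for Dusp6 with quantile normalization (0.020) and the authors' table (0.024), for Spry1 with array weights (-0.14), and for Spry2 with the authors' table (-0.025) and array weights (-0.055), and ran from -0.048 (without severe replicate 4) to 0.19 (without severe replicate 2). None of these passed. Apart from what the settings themselves show, the cause was not tested. Signal near background limits Dusp5, Dusp10 and Spry4.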
